A study of Mus musculus with 9 samples.

Results

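The mouse macrophage-like line RAW264.7 was grown in serum-containing αMEM medium, and polyadenylated RNA was sequenced from 9 libraries in 3 groups. The cells of every group are described as wild type. The comparison here sets 3 libraries of cells grown on a membrane labelled BMC and stimulated with LIPUS, low-intensity pulsed ultrasound (BMC+LIPUS), against 3 libraries of a blank control with neither. The remaining 3 libraries are cells on the BMC membrane without ultrasound (BMC). The series title calls the membranes piezoelectric, that is, of a material that gives an electric charge when deformed. The labels do not say what BMC stands for, nor the intensity or length of the ultrasound, and no group had ultrasound without the membrane. Every BMC+LIPUS value against control therefore holds membrane and ultrasound jointly, and that comparison alone cannot show which of them a change goes with. The BMC libraries have the membrane alone, and BMC+LIPUS is set against them at the end of the Results. All 54052 lines of the deposited table that carry a gene name were taken, of 56691 lines in all. Of the genes they name, 12011 had a mean of at least 0.5 FPKM (fragment counts scaled to transcript length and library size) over the 9 libraries and were tested.

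Macrophages read signs of infection and injury through pattern receptors, and the NF-kB and AP-1 transcription factors carry these signals to the genes of chemokines and cytokines. RAW264.7 cells also divide quickly, so that their RNA holds a large share of genes needed to copy and separate chromosomes. The E2F transcription factors switch the replication genes on as a cell enters S phase. When amino acids run short or the cell is under stress, the factor ATF4 raises genes for amino acid import, synthesis and loading onto tRNA.

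The BMC+LIPUS libraries held 12675400 to 15279200 counts, the BMC libraries 12831300 to 14682400 and the control libraries 13691800 to 16574300 (totals to 6 digits). A library held counts for 17035 to 17879 genes. The 10 macrophage markers all had counts, and their summed level was 7425 to 7672 FPKM in the BMC+LIPUS libraries and 6597 to 7376 FPKM in the control libraries. Of 13 fibroblast, stromal and osteoblast markers 1 was tested. In every BMC+LIPUS and control library 7 of the 13 had no count, among them Col1a2, Col3a1 and Pdgfra. The 13 summed to 1.93 to 2.08 FPKM in BMC+LIPUS and 0.87 to 1.15 FPKM in control. The T and B lymphocyte markers Cd3e, Cd8a and Ms4a1 were likewise without a count, and the 10 lymphocyte markers summed to 67.0 to 102 FPKM in BMC+LIPUS and 127 to 148 FPKM in control. Of the 2 lymphocyte markers tested 1 was called higher and 1 lower. The 9 dendritic cell markers, with Flt3 and Ccr7 at 0, summed to 42.8 to 43.5 FPKM in BMC+LIPUS and 21.2 to 24.1 FPKM in control. Of the 4 dendritic cell markers tested 1 was called higher, at a log2 change of 1.53, and 2 lower. Their median log2 change was -0.26, so the higher sum is not shared by the set. The 9 granulocyte and mast cell markers, with Mpo and Kit at 0, summed to 1.35 to 2.14 FPKM in BMC+LIPUS and 1.75 to 3.53 FPKM in control, and the 9 epithelial and endothelial markers, with Epcam and Cdh1 at 0, to 0.91 to 1.08 FPKM and 0.63 to 0.77 FPKM. The part of these differences in the results was not tested. No label says whether libraries of the same group are separate cultures, so p-values measure the spread between these libraries, which may be technical. In bulk RNA, a smaller share of cells that express a gene and less of its RNA per cell cannot be told apart.

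Of the 12011 genes tested, 5160 (43.0%) were called, meaning an adjusted p under 0.05 in edgeR's quasi-likelihood test with Benjamini-Hochberg adjustment over all genes tested. In BMC+LIPUS, 2529 genes (21.1%) were higher and 2631 (21.9%) were lower, and the median log2 change over all genes tested was 0.01. The split moved with the scaling: 49.0% of the calls were higher as reported, against 36.8% when counts were scaled to library totals and 36.5% when log2(FPKM + 1) was tested with limma. Most calls were small, with 3446 of them (66.8%) under 1.5-fold. At least 2-fold differences were found for 661 called genes (5.5%), 281 of them higher (2.34%) and 380 lower (3.16%). The 3 BMC+LIPUS libraries did not overlap the 3 control libraries for 6117 genes (50.9%), 4766 of which were called (39.7% of all genes tested). The plot of every gene tested shows that the largest rises included abundant genes such as Ccl3, while the largest falls sat mostly at low to moderate levels.

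**Figure D1:**
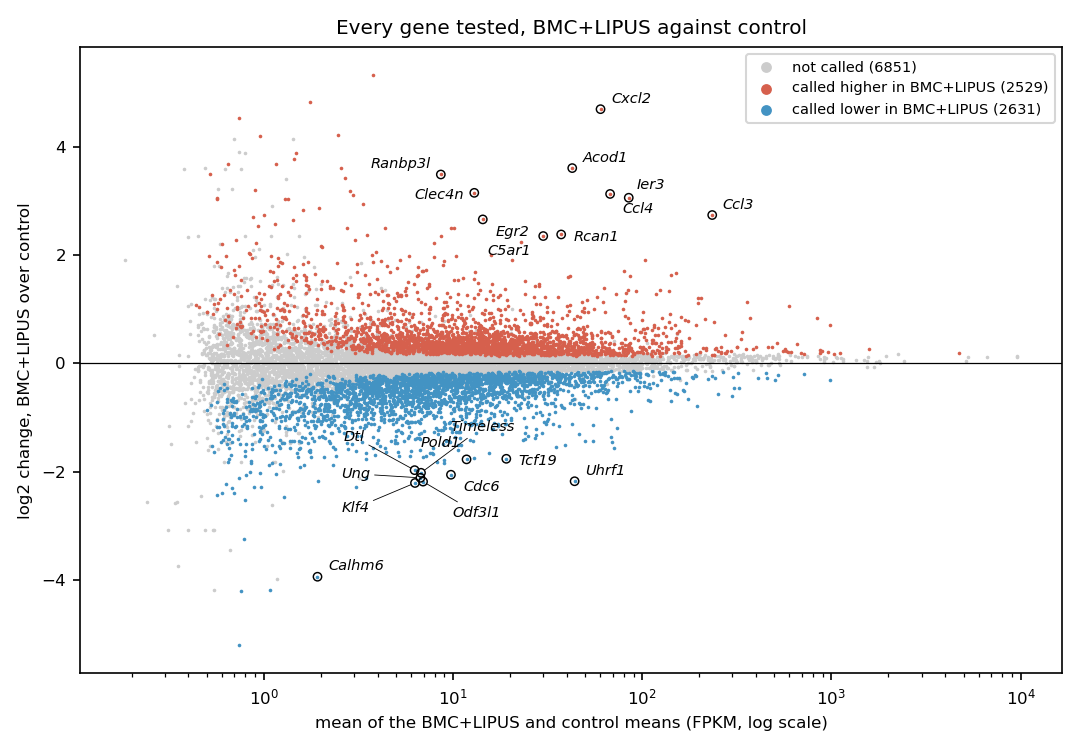
Each point is a gene tested, with the mean of its BMC+LIPUS and control levels (FPKM, log axis) across and its log2 change of BMC+LIPUS over control upwards. Red points are the 2529 genes called higher, blue points the 2631 called lower and grey points those not called; the circled and named genes are the 10 rises and the 10 falls of greatest size in log2(FPKM + 1), taken from called genes with a recognised name and no overlap between groups.

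The genes were also read through 47 lists of genes grouped by pathway or function. The chart of list members shows the share of each list's tested members that was called in each direction, beside the 21.1% and 21.9% over all genes tested. Every count of called list members below is to be read beside these shares. In the order of their medians the lowest are the replication, recombination and Fanconi, E2F and G1, nucleotide synthesis and mitotic lists, and the highest the chemokines, M1 markers, osmotic stress genes, early transcription factors and ATF4 genes. A second plot gives the level of a list in each library, as the mean log2 CPM (counts scaled to library size) of its tested members minus the mean of the 3 control libraries. On that scale the replication list stood at -1.15, -1.07 and -1.23 in the BMC+LIPUS libraries, at -0.86, -0.89 and -1.01 in the BMC libraries, and -0.04, 0.03 and 0.00 in the control libraries.

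**Figure D2:**
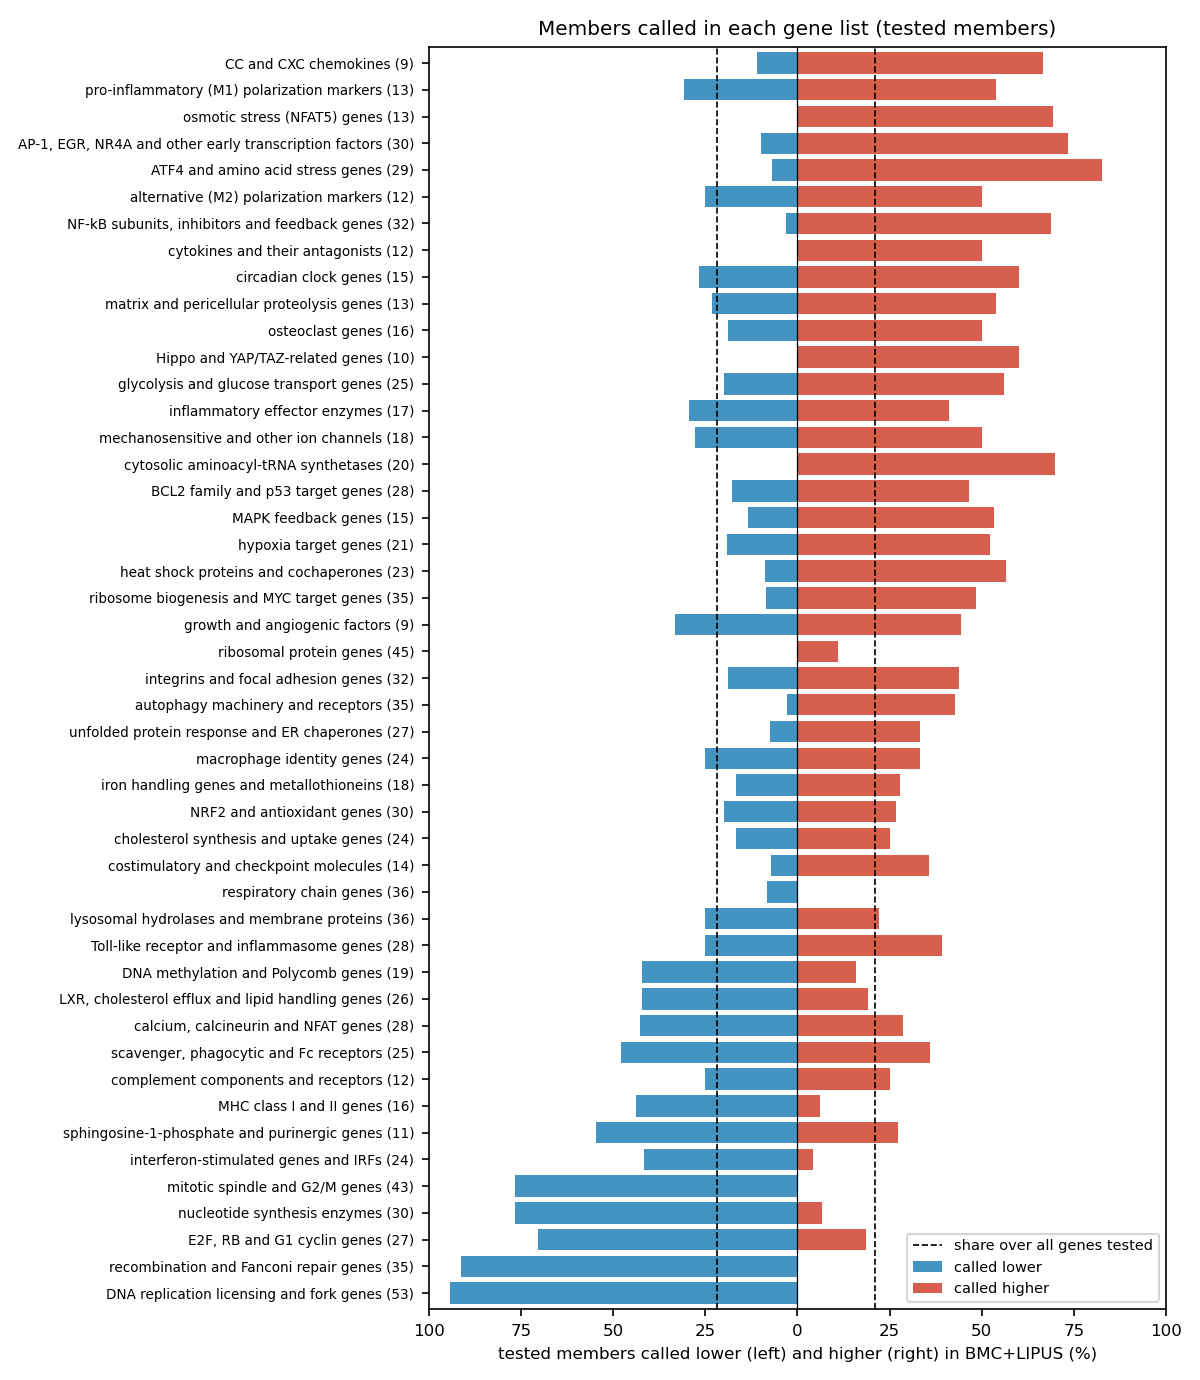
Bars give the share (%) of tested members called higher (red, right) and called lower (blue, left) in BMC+LIPUS against control for each list, with the number of tested members in brackets and dashed lines at the shares over all genes tested. Lists are ordered by their median log2 change; 94.3% of the tested replication genes were called lower.

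**Figure D3:**
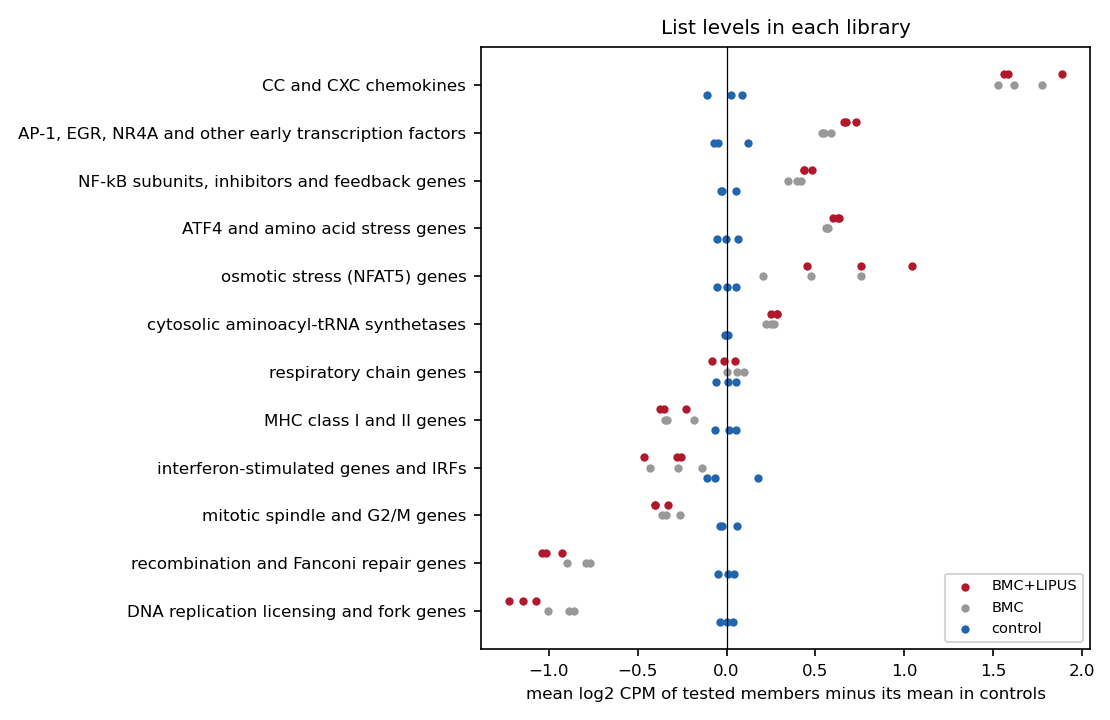
Each point is a library: the mean log2 CPM of a list's tested members minus the mean of the 3 control libraries, for BMC+LIPUS (red), BMC (grey) and control (blue). The replication list stood at -1.23 to -1.07 and the chemokine list at 1.56 to 1.89 in the BMC+LIPUS libraries.

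Chemokines, the secreted proteins that draw other leukocytes to a tissue, held the largest of the 10 rises named in the plot of every gene. Cxcl2, which attracts neutrophils, stood at 125, 115 and 107 FPKM in the 3 BMC+LIPUS libraries, against 5.65, 3.50 and 5.01 FPKM in the 3 control libraries. Every BMC+LIPUS library lay far above every control library, and the 3 BMC libraries lay between them at 81.1, 82.4 and 71.8 FPKM. The rise over control was 26.0-fold (log2 change 4.70 ± 0.12 SE, edgeR adjusted p = 4.04e-13). Ccl4 and Ccl3, which attract monocytes and T cells, rose 8.76-fold and 6.69-fold. Ccl3 was the most abundant of the called chemokines, at 459.9, 363 and 394 FPKM in BMC+LIPUS and 58.7, 61.9 and 70.4 FPKM in control. The groups did not overlap for either gene, which was a condition for the 10 rises. Cxcl10, a chemokine for T cells that interferon also raises, was 4.43-fold higher at a low level of 3.27 ± 0.647 FPKM in BMC+LIPUS and 0.773 ± 0.112 FPKM in control (SD, n = 3 each). Cxcl14 rose 2.27-fold. Cxcl16, a membrane-bound chemokine that also takes up oxidised lipoprotein, was the only tested chemokine called lower, with a log2 change of -0.27 (edgeR adjusted p = 0.00348). Of 24 chemokines listed, 9 were tested, of which 6 were called higher and 1 lower, with a median log2 change of 1.18. The remaining 15 were below the filter on level.

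The promoter of Cxcl2, the largest of those 10 rises, is shown for the NF-kB type of motif, searched as GGNNTTTCC on both strands in the window from 250 bases before to 50 bases after the start site. It was chosen by size of rise from the called chemokines whose promoter held a match. The window is taken from RefSeq (build GRCm38.p6, chr5:90903649-90903948, plus strand), with each match in capitals, at positions -96 and -77 from the start site.
Cxcl2: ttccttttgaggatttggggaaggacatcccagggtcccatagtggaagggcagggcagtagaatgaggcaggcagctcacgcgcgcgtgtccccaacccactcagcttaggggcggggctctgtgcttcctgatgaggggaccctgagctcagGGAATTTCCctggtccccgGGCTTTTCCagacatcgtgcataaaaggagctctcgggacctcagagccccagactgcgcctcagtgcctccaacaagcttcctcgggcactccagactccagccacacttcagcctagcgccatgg
A match stood in 37.5% of the promoters of the chemokine list (6 of 16 with a promoter in the table) and in 42.3% of those of the NF-kB list (11 of 26). It stood in 6.22% of the promoters of the genes tested and in 5.72% of all 27025 promoters. Shares over genes tested, here and for the motifs below, rest on the 8376 of 12011 genes with a promoter in the table. Shares of a list count every member with a promoter, also those below the filter on level. Among genes called higher the share was 6.51%, and among genes called lower 5.26%. These are matches of letters in a window and describe the sequence only.

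Of 28 cytokine genes listed, 12 passed the filter on level. Tnf, the central cytokine of macrophage activation, stood at 125, 112 and 122 FPKM in the BMC+LIPUS libraries and 48.3, 43.4 and 55.2 FPKM in the control libraries. The groups were well apart, and the rise was 2.57-fold (log2 change 1.36 ± 0.09 SE, edgeR adjusted p = 8.91e-09). Il1rn, whose product blocks the interleukin-1 receptor, rose 3.65-fold, and Osm, a cytokine of the interleukin-6 family, 2.63-fold. Tnfsf9, the ligand of the costimulatory receptor 4-1BB, stood at 55.7 ± 5.70 FPKM in BMC+LIPUS and 27.8 ± 4.79 FPKM in control (SD, n = 3 each) and rose 2.11-fold. Tgfb1, a cytokine that restrains inflammation and drives matrix formation, rose 1.32-fold. Il1b was near the limit of the test, at 0.89, 1.28 and 0.99 FPKM in BMC+LIPUS and 0.59, 0.47 and 0.61 FPKM in control. Its log2 change of 0.98 ± 0.34 (SE) had an edgeR adjusted p of 0.0276, which became 0.0555 without control library 1, 0.0975 without control library 2, 0.092 without BMC+LIPUS library 2 and 0.0525 without BMC+LIPUS library 3. The adjusted p of Il1b was 0.056 in the DESeq2 Wald test and 0.0981 with limma on log2(FPKM + 0.1). In all, 6 of 12 tested cytokine genes were called higher and none lower, with a median log2 change of 0.38. Il6 had no count in any library, and Il10 had at most 6 counts in a library.

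The enzymes of the inflammatory response moved both ways. Acod1, which makes the antimicrobial metabolite itaconate, stood at 79.4, 83.1 and 73.3 FPKM in the BMC+LIPUS libraries and 6.19, 6.16 and 7.98 FPKM in the control libraries. All BMC+LIPUS libraries were at least several times above all control libraries, a 12.2-fold rise (edgeR adjusted p = 5.83e-12). Ptgs2, the inducible cyclooxygenase that starts prostaglandin synthesis, rose 7.73-fold to a low level of 5.92 ± 0.512 FPKM, against 0.8 ± 0.04 FPKM in control (SD, n = 3 each). Cybb, of the NADPH oxidase, rose 1.24-fold. The leukotriene genes Alox5 and Alox5ap were 1.34-fold and 1.40-fold lower, and Hpgds, the prostaglandin D synthase of blood cells, 1.56-fold. Of 17 tested enzymes 7 were called higher and 5 lower, with a median log2 change of 0.24 that was 0.12 without control library 2 and 0.14 without BMC+LIPUS library 3. Nos2, the inducible nitric oxide synthase, had 1 count in 1 BMC+LIPUS library and none in any control library. Arg1, the arginase of alternatively activated macrophages, had 7, 3 and 0 counts in the BMC+LIPUS libraries and 0, 0 and 1 in the control libraries.

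**Figure D4:**
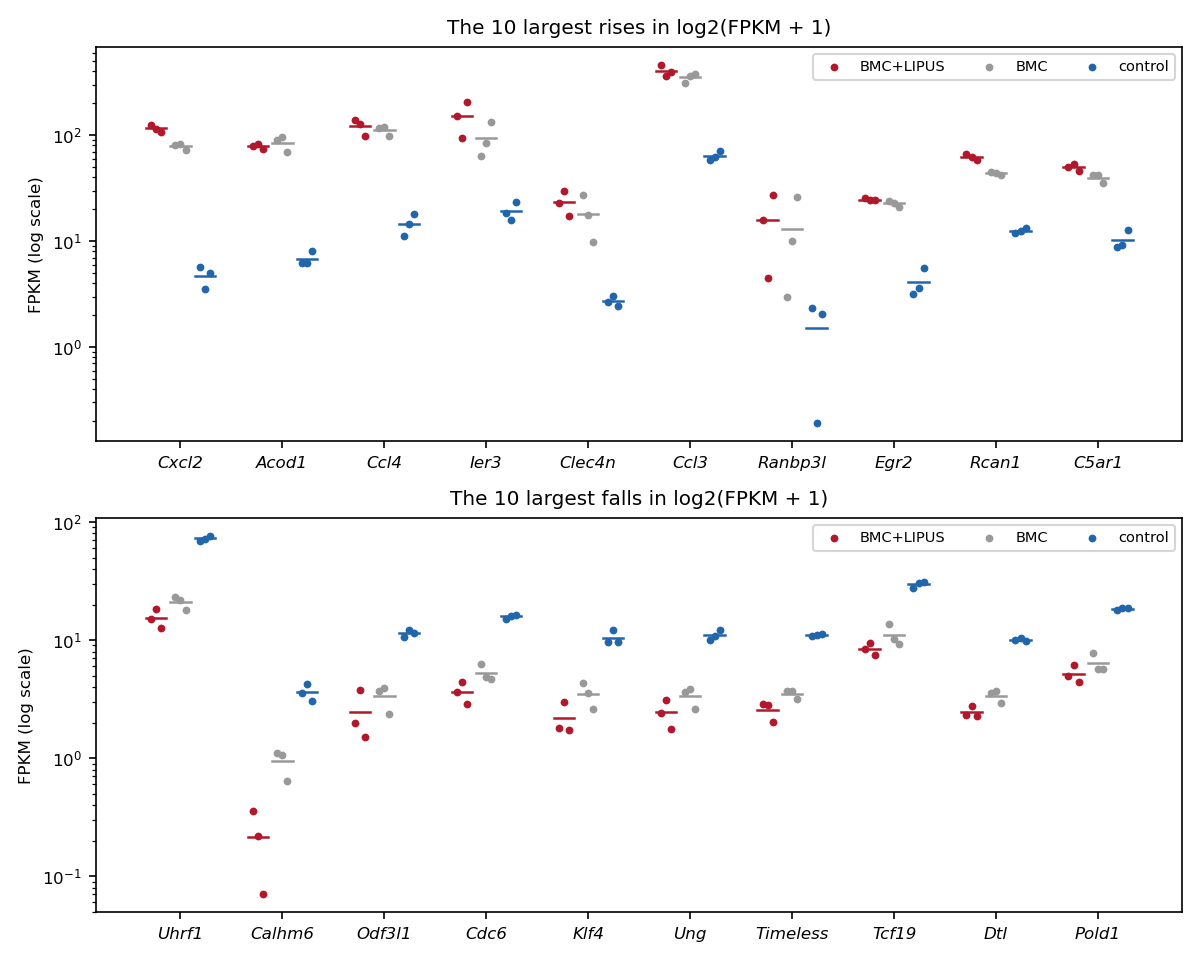
Levels (FPKM, log axis) of the 10 largest rises (upper panel) and the 10 largest falls (lower panel) in log2(FPKM + 1), with a point for each BMC+LIPUS (red), BMC (grey) and control (blue) library and a line at the mean of each group. The 20 genes were picked for having no overlap between BMC+LIPUS and control libraries, so that gap is part of the choice. Cxcl2 stood at 125, 115 and 107 FPKM in BMC+LIPUS and Uhrf1 at 14.9, 18.3 and 12.8 FPKM.

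Among costimulatory molecules, which T cells need beside antigen, Cd80 stood at 7.24, 8.73 and 6.27 FPKM in the BMC+LIPUS libraries and 1.15, 1.82 and 1.08 FPKM in the control libraries. Cd86 stood at 1.32, 1.38 and 1.33 FPKM in the BMC+LIPUS libraries and 0.27, 0.26 and 0.52 FPKM in the control libraries. Neither gene's groups overlapped, and the rises were 5.66-fold for Cd80 and 4.07-fold for Cd86 (edgeR adjusted p = 7.83e-09 and 4.68e-05). Pvr, the poliovirus receptor and a ligand of T and NK cell receptors, rose 2.45-fold. Sirpa, whose product receives the signal that protects healthy cells from being eaten, was 1.24-fold lower. In this list 5 of 14 tested members were called higher and 1 lower. Its median log2 change was -0.01, and it turned to 0.02 without control library 2, 0.04 without BMC+LIPUS library 1 and 0.01 without BMC+LIPUS library 3.

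NF-kB genes were mostly higher. In this list of subunits, inhibitors and feedback genes 22 of 32 members were called higher, all 32 were tested, and the median log2 change was 0.40. Traf1, an adaptor of the TNF receptor family, rose most, 3.77-fold, with 8.33, 7.48 and 8.92 FPKM in BMC+LIPUS and 2.01, 1.98 and 2.93 FPKM in control. Nfkbiz, a nuclear co-activator of secondary response genes, rose 2.85-fold. The subunits Nfkb2 and Rel rose 1.88-fold and 1.47-fold, and the adhesion molecule Icam1, a classical NF-kB target, 1.61-fold. Nfkbia, the inhibitor that ends the response, was at 115 ± 6.68 FPKM in BMC+LIPUS and 81.2 ± 8.68 FPKM in control (SD, n = 3 each). The only member called lower was Cyld, which removes ubiquitin chains from signalling complexes and so dampens NF-kB, 1.41-fold (edgeR adjusted p = 3.12e-05). Without BMC+LIPUS library 2 the number called lower was 2.

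Early transcription factors and early response genes, which answer growth and stress signals within minutes to hours, were also mostly higher. Of 30 tested members 22 were called higher and 3 lower, with a median log2 change of 0.70. Ier3, an early response gene that affects cell survival, stood at 152, 94.4 and 206 FPKM in the BMC+LIPUS libraries and 18.3, 15.7 and 23.4 FPKM in the control libraries. BMC+LIPUS libraries spread widely for this gene but all stood above the highest control, as the choice of the largest rises required. Egr2, a zinc finger factor, stood at 25.4, 24.4 and 24.2 FPKM in BMC+LIPUS and 3.15, 3.64 and 5.54 FPKM in control and rose 6.33-fold (edgeR adjusted p = 5.85e-10). Fosl2, an AP-1 subunit, rose 2.23-fold, Zfp36, which marks cytokine messages for decay, 2.34-fold, and Btg1, which slows growth, 2.23-fold. The 3 members that fell were Klf4, Fos and Klf10. Klf4, a factor linked to alternative activation, stood at 1.80, 2.97 and 1.74 FPKM in BMC+LIPUS and 9.54, 12.1 and 9.67 FPKM in control and was 4.62-fold lower. Fos, the founding AP-1 subunit, was 2.51-fold lower, with 14.2, 18.7 and 12.4 FPKM in BMC+LIPUS and 36.6, 41.1 and 41.0 FPKM in control. So the AP-1 family held rises of Fosl2 and a fall of Fos side by side, and the groups overlapped for neither.

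Genes that feed back on MAP kinases included phosphatases that switch the kinases off. Dusp16, which acts on JNK and p38, stood at 10.7 ± 0.805 FPKM in BMC+LIPUS and 4.17 ± 0.222 FPKM in control (SD, n = 3 each) and rose 2.70-fold. Dusp5, Dusp2 and Dusp1 rose 2.51-fold, 1.80-fold and 1.74-fold. Dusp7 went the other way and was 2.03-fold lower (edgeR adjusted p = 6.95e-06). The list had 8 of 15 tested members called higher and 2 lower, with 4 lower when counts were scaled to library totals.

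**Figure D5:**
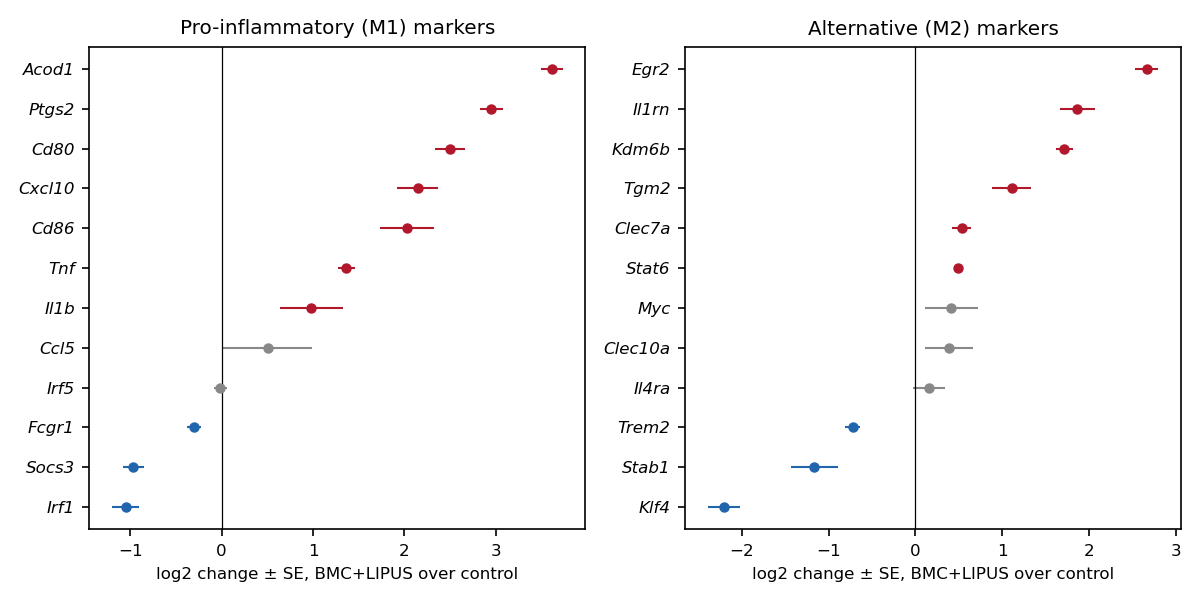
Log2 change of BMC+LIPUS over control with its SE for 12 of the 13 tested markers of pro-inflammatory (M1, left panel) and the 12 of alternative (M2, right panel) polarization; red points were called higher, blue points lower and grey points not called. Both panels hold called rises and called falls, with Acod1 and Egr2 the highest and Irf1 and Klf4 the lowest.

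Macrophage polarization is commonly described with 2 sets of markers, pro-inflammatory (M1) and alternative (M2), and the title of the series names polarization. Of 28 M1 markers listed, 13 were tested, of which 7 were called higher and 4 lower, with a median log2 change of 0.98. That median was 0.40 with limma on log2(FPKM + 1) and -0.04 among the markers with at least 5 FPKM. Of 29 M2 markers, 12 were tested, of which 6 were called higher and 3 lower, with a median of 0.45, or 0.29 without BMC+LIPUS library 2. Over all genes tested the called share was 21.1% higher and 21.9% lower. The M1 rises were Acod1, Ptgs2, Cd80, Cxcl10, Cd86, Tnf and Il1b, given above. The M1 falls included Irf1, Socs3 and Fcgr1. Irf1, an interferon-induced factor, stood at 3.08, 2.60 and 2.16 FPKM in BMC+LIPUS and 4.79, 5.96 and 6.33 FPKM in control and was 2.07-fold lower. Socs3, a feedback inhibitor of STAT3 signalling, was 1.95-fold lower, and the high-affinity IgG receptor Fcgr1 1.23-fold lower. No BMC+LIPUS library overlapped a control library for any of these.

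On the M2 side, Egr2 and Il1rn rose and Klf4 fell as given above. Kdm6b, which removes the repressive H3K27 methyl mark, stood at 9.84, 11.7 and 9.64 FPKM in BMC+LIPUS and 3.51, 2.95 and 3.53 FPKM in control and rose 3.28-fold (edgeR adjusted p = 1.82e-09). Stat6, which carries interleukin-4 signals, rose 1.41-fold, and Clec7a, the beta-glucan receptor Dectin-1, 1.45-fold. Trem2, a lipid receptor of phagocytes, was 1.65-fold lower, at 33.9 ± 4.22 FPKM in BMC+LIPUS and 58.6 ± 3.98 FPKM in control (SD, n = 3 each). Stab1, a scavenger receptor, was 2.24-fold lower at a low level of 0.43 ± 0.21 FPKM in BMC+LIPUS and 0.993 ± 0.133 FPKM in control. Mrc1, the mannose receptor, had 6, 11 and 5 counts in the BMC+LIPUS libraries and 6, 32 and 12 in the control libraries, below the filter. Cd163, the haemoglobin scavenger receptor, had no count in any of the 9 libraries.

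Genes of DNA replication had the lowest median log2 change of the 47 lists. Of 53 licensing and fork genes, all tested, 50 were called lower and none higher, 35 of them at least 2-fold, with a median log2 change of -1.19. Cdc6, which loads the MCM helicase at origins, stood at 3.61, 4.43 and 2.90 FPKM in the BMC+LIPUS libraries and 15.1, 16.1 and 16.4 FPKM in the control libraries. The lowest control library was more than 3 times the highest BMC+LIPUS library. It was 4.16-fold lower (log2 change -2.06 ± 0.12 SE, edgeR adjusted p = 2.15e-09), with BMC cells at 6.25, 4.85 and 4.66 FPKM. Timeless, a fork protection protein, was 4.06-fold lower, with 2.89, 2.82 and 2.02 FPKM in BMC+LIPUS and 10.8, 11 and 11.2 FPKM in control. Pold1, the catalytic subunit of DNA polymerase delta, stood at 4.97, 6.13 and 4.38 FPKM in BMC+LIPUS and 17.9, 18.9 and 18.6 FPKM in control and was 3.42-fold lower. Of the helicase subunits, Mcm6 was 2.94-fold lower, at 34.9 ± 3.78 FPKM in BMC+LIPUS and 108 ± 5.29 FPKM in control (SD, n = 3 each), and Mcm7 2.46-fold lower. Wdhd1 and Clspn, which hold the fork together and signal its stalling, were 3.56-fold and 3.14-fold lower. Dtl, which directs the licensing factor Cdt1 to destruction, stood at 2.32, 2.75 and 2.29 FPKM in BMC+LIPUS and 9.99, 10.5 and 9.80 FPKM in control, and Tcf19, a gene of the same phase, was 3.39-fold lower. Pcna, the sliding clamp, was the most abundant of the named replication genes and fell less, 1.61-fold.

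The promoters of Cdc6 and Pold1 are shown with their match to an E2F type of motif, searched as TTTCCCGC or TTTGGCGC on both strands. They were chosen by size of fall from called replication genes whose promoter held a match. The match was thus a condition for being shown. Both windows are RefSeq sequence of build GRCm38.p6, the first at chr11:98907901-98908200 on the plus strand and the second at chr7:44548766-44549065 on the minus strand, read in the direction of the gene. Capitals mark the match, which begins at position -138 from the start site in Cdc6 and at 39 in Pold1.
Cdc6: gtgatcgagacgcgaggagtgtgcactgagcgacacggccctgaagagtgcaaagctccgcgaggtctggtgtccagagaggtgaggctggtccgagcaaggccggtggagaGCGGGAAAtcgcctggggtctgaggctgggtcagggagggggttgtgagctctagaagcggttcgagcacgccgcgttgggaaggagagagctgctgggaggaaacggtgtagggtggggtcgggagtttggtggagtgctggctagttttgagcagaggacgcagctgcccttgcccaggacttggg
Pold1: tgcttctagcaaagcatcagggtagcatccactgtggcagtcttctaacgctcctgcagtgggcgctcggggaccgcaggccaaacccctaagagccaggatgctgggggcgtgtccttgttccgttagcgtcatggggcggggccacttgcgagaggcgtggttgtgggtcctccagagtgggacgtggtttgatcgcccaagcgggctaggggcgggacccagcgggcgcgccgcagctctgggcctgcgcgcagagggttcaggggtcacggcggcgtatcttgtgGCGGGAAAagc
Such a match stood in 33.3% of the promoters of the replication list (14 of 42) and 16% of those of the recombination and Fanconi list (4 of 25), against 3.47% over the genes tested and 1.63% over all 27025 promoters. It stood in 6.31% of promoters of genes called lower and 1.78% of those of genes called higher. None of 36 promoters of the mitotic list held it in this window.

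Most enzymes that supply nucleotides for replication fell. Of 30 genes, all tested, 23 were called lower and 2 higher, with a median log2 change of -0.45. Rrm2, the regulated subunit of ribonucleotide reductase, stood at 35.4, 41.4 and 31.4 FPKM in the BMC+LIPUS libraries and 97.9, 109 and 103 FPKM in the control libraries. The groups lay far apart, and the gene was 2.73-fold lower. Dck, Dut and Tk1, which salvage deoxynucleosides and keep uracil out of DNA, were 2.46-fold, 2.24-fold and 2.20-fold lower (edgeR adjusted p = 5.62e-09, 1.88e-09 and 8.91e-09). Mthfd2, a mitochondrial folate enzyme that ATF4 also controls, rose 1.58-fold. The other rise was Impdh1, an enzyme of guanine nucleotide synthesis, at 0.19 on the log2 scale, and its adjusted p of 0.0267 passed 0.05 without control library 1, control library 2 or BMC+LIPUS library 2. In edgeR the adjusted p of Impdh1 was 0.16 with library totals and 0.0621 with no filter. With limma it was 0.142 on log2(FPKM + 1) and 0.144 on log2(FPKM + 0.1).

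Most genes that repair broken DNA by recombination and the Fanconi pathway fell. Of 35 genes, all tested, 32 were called lower and none higher, with a median log2 change of -0.93. Brca1, which prepares breaks for recombination, stood at 2.28, 2.60 and 2.10 FPKM in BMC+LIPUS and 8.36, 8.25 and 7.41 FPKM in control, 3.29-fold lower (edgeR adjusted p = 1.62e-09). Its BMC+LIPUS libraries all stood below the lowest control. Rad54l, a motor protein of recombination, was 3.14-fold lower. The mismatch repair gene Msh6 was 2.17-fold lower. Ung, which removes uracil from DNA, stood at 2.42, 3.11 and 1.78 FPKM in BMC+LIPUS and 10.1, 10.8 and 12.2 FPKM in control, and at 4.33-fold lower was the largest fall of the list.

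The E2F and G1 genes that govern entry into S phase moved both ways. Of 27 tested members 19 were called lower and 5 higher, with a median log2 change of -0.50. The activating factors E2f1 and E2f2 were 2.86-fold and 3.28-fold lower. E2f1 stood at 5.62, 6.27 and 4.11 FPKM in BMC+LIPUS and 15.0, 15.8 and 17.2 FPKM in control. Ccne2, a cyclin that drives entry into S phase, was 2.71-fold lower, and the repressors E2f8 and Rbl1 were both 2.30-fold lower. The rises included the kinase inhibitors Cdkn1a and Cdkn1b. Cdkn1a, the p21 inhibitor, stood at 62.3, 67.9 and 57.6 FPKM in BMC+LIPUS and 30.9, 36.4 and 33.9 FPKM in control, 1.95-fold higher with no overlap (edgeR adjusted p = 4.37e-08). Cdkn1b, the p27 inhibitor, rose 1.47-fold and Ccnd2, a G1 cyclin, 2.16-fold. Without control library 2 the number called higher was 3.

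Most mitotic genes fell, by less than 2-fold. Of 43 genes, all tested, 33 were called lower and none higher, with a median log2 change of -0.41. Mad2l1, of the spindle checkpoint, fell most and stood at 8.04, 7.60 and 6.79 FPKM in BMC+LIPUS and 13.9, 14.4 and 13.8 FPKM in control, 1.79-fold lower. Bub1b and Ttk of the same checkpoint were 1.69-fold and 1.66-fold lower. Ccna2, the cyclin of S phase and early mitosis, stood at 32.6 ± 1.03 FPKM in BMC+LIPUS and 54.2 ± 2.26 FPKM in control (SD, n = 3 each) and was 1.58-fold lower (edgeR adjusted p = 3.05e-07).

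Some genes that copy DNA methylation and the Polycomb mark onto new chromatin fell. Uhrf1, which recognises DNA methylated on its old strand alone behind the fork, stood at 14.9, 18.3 and 12.8 FPKM in the BMC+LIPUS libraries and 69.2, 72.3 and 76.2 FPKM in the control libraries. Every control library was more than 3 times every BMC+LIPUS library, and the fold was 4.52 (log2 change -2.18 ± 0.10 SE, edgeR adjusted p = 3.41e-10). Its partner, the maintenance methyltransferase Dnmt1, was 2.69-fold lower at 26.2 ± 3.58 FPKM in BMC+LIPUS and 74.0 ± 1.83 FPKM in control (SD, n = 3 each). Hells, a remodeller needed for methylation, was 2.54-fold lower, and Ezh2, the Polycomb methyltransferase, 1.70-fold lower. Jarid2, which guides Polycomb to its targets, rose 1.75-fold, and the demethylase Kdm6b rose as given above. In this list 8 of 19 tested members were called lower and 3 higher, and without BMC+LIPUS library 2 the number called lower was 5.

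Most ATF4 genes rose. Of 29 tested members 24 were called higher and 2 lower, with a median log2 change of 0.57. Atf4 itself stood at 188, 181 and 179.5 FPKM in BMC+LIPUS and 117, 112 and 123 FPKM in control and rose 1.63-fold, with all BMC+LIPUS libraries above all controls. Chac1, which breaks down glutathione, rose most, 4.88-fold, at 5.00 ± 0.535 FPKM in BMC+LIPUS and 1.07 ± 0.0635 FPKM in control (SD, n = 3 each). Slc7a11, the cystine importer, rose 3.23-fold (edgeR adjusted p = 6.67e-10). Sesn2, which reports amino acid shortage to mTORC1, rose 2.14-fold, and Slc1a5, a glutamine importer, 1.60-fold. The falls were Cebpg, a dimer partner of ATF4, 1.21-fold lower, and Pycr1, a proline enzyme, 1.56-fold lower. Pycr1 was no longer called without control library 2 or 3 or without BMC+LIPUS library 2 or 3. A match to the ATF4 type of motif, TGATGNAAT, stood in 10.7% of the promoters of this list (3 of 28), against 0.358% over the genes tested and 0.970% over all promoters. Among genes called higher the share was 0.356% and among genes called lower 0.335%, both close to that over the genes tested.

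Cytosolic tRNA synthetases, which load amino acids onto tRNA, were mostly higher, each by less than 2-fold. Of 20 genes, all tested, 14 were called higher and none lower, with a median log2 change of 0.23. Cars, for cysteine, and Nars, for asparagine, rose most, 1.86-fold and 1.65-fold. Nars stood at 143, 138 and 141 FPKM in BMC+LIPUS and 91.6, 90.0 and 88.2 FPKM in control. Aars and Tars, for alanine and threonine, rose 1.49-fold and 1.42-fold (edgeR adjusted p = 1.13e-06 and 8.24e-07). The direction of these rises held under library totals, but there 1 member was called lower.

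Other stress lists moved less evenly. In the NRF2 and antioxidant list 8 of 30 tested members were called higher and 6 lower, near the shares over all genes tested, with a median log2 change of 0.03 that turned to -0.04 with library totals. Sqstm1, a receptor for autophagy that also frees NRF2, stood at 268, 251 and 274 FPKM in BMC+LIPUS and 128, 121 and 136 FPKM in control and rose 2.16-fold, and Txnrd1, a thioredoxin reductase, rose 1.56-fold. Hmox1, which breaks down haem, rose 1.51-fold. Gpx1 and Gpx4, peroxide-removing selenoproteins, were 1.39-fold and 1.29-fold lower. Fth1, the ferritin heavy chain that stores iron, stood at 853, 888 and 822 FPKM in BMC+LIPUS and 1101, 1045 and 1179 FPKM in control. That is the largest fall in absolute level among called genes, and the groups did not overlap (1.24-fold lower, edgeR adjusted p = 3.82e-04).

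Heat shock and chaperone genes showed 13 of 23 tested members called higher and 2 lower, with a median log2 change of 0.17. Hspa4l rose 3.93-fold, at 9.24, 4.52 and 14.1 FPKM in BMC+LIPUS and 2.61, 2.68 and 2.17 FPKM in control, the groups apart but the BMC+LIPUS libraries widely spread. Hspa1b, an inducible Hsp70 gene, rose 9.14-fold, at 4.67, 2.62 and 8.05 FPKM in BMC+LIPUS and 0.8, 0.28 and 0.73 FPKM in control. Its near-identical neighbour Hspa1a had 0, 0 and 1 counts in the BMC+LIPUS libraries and no count in any control library. How reads that match both genes were assigned was not tested. The cochaperone Bag3 rose 1.40-fold. The number called lower was 1 or 0 when any 1 of the 6 libraries was left out. In the unfolded protein list 9 of 27 tested members were called higher and 2 lower, with a median of 0.10 and 4 lower with library totals. These shares were 33.3% and 7.41%, beside 21.1% and 21.9% over all genes tested. Hyou1, an ER chaperone, rose 1.42-fold and Syvn1, the ER ubiquitin ligase, 1.51-fold, while Sdf2l1 was 1.47-fold and the ER stress kinase Eif2ak3 1.39-fold lower (edgeR adjusted p = 1.18e-05 and 0.00184).

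Osmotic stress genes, the targets of NFAT5 that import or make small solutes, were higher where they were called. Of 13 tested members 9 were called higher and none lower, with a median log2 change of 0.75. Slc6a12, the betaine importer, stood at 179.8, 127 and 223 FPKM in BMC+LIPUS, 91.9, 130.2 and 188 FPKM in BMC and 78.9, 55.1 and 82.8 FPKM in control. The control libraries were the lowest, and both other groups were spread by more than the controls. The rise over control was 2.57-fold (edgeR adjusted p = 1.60e-04). Nfat5 itself stood at 36.0, 34.4 and 38.9 FPKM in BMC+LIPUS and 23.6, 20.6 and 18.9 FPKM in control and rose 1.82-fold, Sgk1, a kinase of salt balance, 2.65-fold, and Slc38a2, a solute and amino acid importer, 1.68-fold. On the scale of list levels the BMC+LIPUS libraries stood at 0.76, 0.45 and 1.04, the BMC libraries at 0.20, 0.48 and 0.76, and the controls at 0.06, -0.06 and 0.00.

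Calcium genes moved both ways, with large single rises. Rcan1, an inhibitor of calcineurin that calcineurin itself induces, stood at 65.8, 62.1 and 58.4 FPKM in the BMC+LIPUS libraries, 45.0, 44.2 and 42.5 FPKM in the BMC libraries and 11.8, 12.5 and 13.2 FPKM in the control libraries. The 3 groups were fully apart in that order. Rcan1 rose 5.22-fold over control (log2 change 2.38 ± 0.07 SE, edgeR adjusted p = 6.71e-13). Atp2a3, a pump that fills the calcium store, rose 4.69-fold at 13 ± 0.233 FPKM in BMC+LIPUS and 2.89 ± 0.392 FPKM in control (SD, n = 3 each), and Nfatc1, a calcineurin-driven factor, 1.51-fold. The store release channel Itpr3 was 1.91-fold lower, the kinase Camkk2 1.54-fold lower and Rcan3 1.53-fold lower. Of 28 tested members 8 were called higher and 12 lower, with a median log2 change of -0.11. These shares of 28.6% and 42.9% stood beside 21.1% and 21.9% over all genes tested.

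Ion channels that sense force or volume changed by less than 2-fold. Of 18 tested members 9 were called higher and 5 lower, with a median log2 change of 0.23, and the number lower was 3 without control library 1, control library 2 or BMC+LIPUS library 1. Piezo1, a channel opened by membrane tension, stood at 7.97, 9.51 and 9.21 FPKM in BMC+LIPUS and 7.72, 8.12 and 7.78 FPKM in control. Its log2 change of 0.25 ± 0.07 (SE) had an edgeR adjusted p of 0.0136, which became 0.0684 with library totals, 0.0512 without control library 1, 0.05 without BMC+LIPUS library 2 and 0.0611 without BMC+LIPUS library 3. With limma the adjusted p of Piezo1 was 0.117, on log2(FPKM + 1) as on log2(FPKM + 0.1). Tmem63b, a channel that opens with stretch, rose 1.66-fold, the cation channel Trpv2 1.43-fold, and the potassium channel Kcnj2 1.61-fold. Lrrc8d, a subunit of the volume-regulated anion channel, rose 1.74-fold while the subunit Lrrc8c was 1.73-fold lower (edgeR adjusted p = 1.58e-05 and 1.14e-04). P2rx7, an ATP-gated channel, and Kcnn4, a calcium-gated potassium channel, were 1.72-fold and 1.59-fold lower.

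Receptors for sphingosine 1-phosphate, a lipid signal of blood and lymph, were among the falls. S1pr1 stood at 3.37, 5.69 and 2.61 FPKM in BMC+LIPUS and 14.2, 14.6 and 13.1 FPKM in control and was 3.45-fold lower. S1pr2 stood at 3.68, 4.37 and 3.48 FPKM in BMC+LIPUS, 5.97, 5.81 and 5.17 FPKM in BMC and 9.46, 9.95 and 9.91 FPKM in control, and was 2.43-fold lower than in control (edgeR adjusted p = 6.26e-09). For both genes all BMC+LIPUS libraries stood below all controls. Ada, which breaks down adenosine, was 1.67-fold lower, while the adenosine receptor Adora2b rose 1.65-fold. Of 11 tested members of this list 3 were called higher and 6 lower, with a median log2 change of -0.30.

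Glycolysis genes were more often higher than lower. Of 25 tested members 14 were called higher and 5 lower, with a median log2 change of 0.26, and without BMC+LIPUS library 1 the number lower was 3. Pfkp, the platelet-type phosphofructokinase, stood at 19.5, 21.3 and 20.3 FPKM in BMC+LIPUS and 9.39, 9.84 and 8.93 FPKM in control and rose 2.28-fold, while the muscle-type Pfkm was 1.95-fold lower, at 2.68, 2.93 and 2.94 FPKM in BMC+LIPUS and 4.92, 6.08 and 6.44 FPKM in control. The groups overlapped for neither. Slc2a1, the main glucose importer, rose 1.96-fold (edgeR adjusted p = 1.37e-08), and the lactate exporter Slc16a3 1.52-fold. In the hypoxia list 11 of 21 tested members were called higher and 4 lower, with a median of 0.21, or 0.37 without control library 2. Vegfa, which drives vessel growth, rose 2.04-fold and P4ha1, a collagen hydroxylase, 1.66-fold, while Ndrg1 was 3.30-fold lower and Selenbp1 1.91-fold lower at low level. Of 36 respiratory chain genes, all tested, none was called higher and 3 lower. With library totals 8 were lower, and 1 was higher without control library 3 and 2 without BMC+LIPUS library 2.

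Genes of lipid handling and of cholesterol synthesis differed in their counts. Of 26 tested genes of LXR signalling, efflux and lipid handling 11 were called lower and 5 higher, with a median log2 change of -0.10, or -0.06 without BMC+LIPUS library 1 and -0.19 without BMC+LIPUS library 2. The shares were 42.3% lower and 19.2% higher, the latter near the 21.1% over all genes tested. The number higher was 3 without control library 1 or BMC+LIPUS library 1 or 3. Cpt1a, which admits fatty acids to mitochondria, was 1.91-fold lower, at 2.93, 3.44 and 3.06 FPKM in BMC+LIPUS and 6.42, 6.48 and 6.01 FPKM in control. Plin2, the coat of lipid droplets, and Npc1, which moves cholesterol out of lysosomes, were both 1.66-fold lower (edgeR adjusted p = 3.16e-06 and 5.91e-07). Abca1, which exports cholesterol, rose 1.71-fold. The cholesterol synthesis list was close to the 21.1% higher and 21.9% lower over all genes tested, with 6 of 24 tested members higher and 4 lower, or 7 lower with library totals. Mvk, the mevalonate kinase of the pathway, was 1.49-fold lower.

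Lysosome genes were called about as often as all genes tested, 22.2% higher and 25% lower against 21.1% and 21.9%. Tfe3 and Mitf, factors that drive lysosomal genes, rose 1.99-fold and 1.89-fold. Tfeb, the third factor of that family on the list, stood at 1.68, 2.96 and 1.81 FPKM in BMC+LIPUS and 6.0, 6.51 and 7.25 FPKM in control and was 2.94-fold lower (edgeR adjusted p = 1.31e-06). The groups overlapped for none of these factors. The protease Lgmn, at 224, 248 and 224 FPKM in BMC+LIPUS and 365, 357 and 379.8 FPKM in control, was 1.51-fold lower, and Psap, the saposin precursor, 1.37-fold lower. Ctsl, a cathepsin, rose 1.29-fold and Neu1, a sialidase, 1.44-fold. In all 8 of 36 tested members were called higher and 9 lower. In the autophagy list 15 of 35 tested members were called higher and 1, Atg7, lower, with a median log2 change of 0.12. Uvrag, which acts in the growth of autophagosomes, rose 2.42-fold and Gabarapl1, which coats them, 1.44-fold. The number called lower was 5 with library totals and 2 without control library 3, BMC+LIPUS library 1 or BMC+LIPUS library 2.

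RAW264.7 cells can become bone-resorbing osteoclasts when given RANKL. Car2, the carbonic anhydrase that acidifies the resorption pit, stood at 222, 164 and 254 FPKM in the BMC+LIPUS libraries and 80.1, 54.3 and 81.5 FPKM in the control libraries, 3.12-fold higher with no overlap. Acp5, the tartrate-resistant phosphatase, rose 3.11-fold at 5.12 ± 0.533 FPKM in BMC+LIPUS and 1.72 ± 0.414 FPKM in control (SD, n = 3 each), and Nfatc1, the master regulator, as given above. Tnfrsf11a, which encodes the RANK receptor, was 1.46-fold lower (edgeR adjusted p = 0.00157). Of 16 tested members 8 were called higher and 3 lower, with a median log2 change of 0.30, and without control library 1 the number lower was 1.

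Adhesion and matrix genes held several of the abundant rises. Sdc4, a heparan sulphate proteoglycan of focal adhesions, stood at 159.9, 157 and 171 FPKM in BMC+LIPUS and 43.2, 48.0 and 45.6 FPKM in control, 3.75-fold higher. Within the same family Sdc1 was 2.68-fold lower and Sdc3 2.62-fold lower, Sdc3 at under 1.5 FPKM in each library. Spp1, osteopontin, stood at 849.8, 729 and 818 FPKM in BMC+LIPUS and 402, 381 and 418 FPKM in control and rose 2.10-fold (edgeR adjusted p = 8.53e-09). Plaur, the receptor for the protease urokinase, rose 2.70-fold and Cd44, the hyaluronan receptor, 2.34-fold. Of 13 tested matrix and proteolysis genes 7 were called higher and 3 lower, with a median log2 change of 0.30. In the integrin and focal adhesion list 14 of 32 tested members were called higher and 6 lower, with a median of 0.13, or 0.06 without BMC+LIPUS library 2. Fyn, a Src family kinase, rose 2.43-fold and Zyx, a focal adhesion protein that answers tension, 2.03-fold, while Actn1, an actin cross-linker, was 1.42-fold lower. The Hippo list had 6 of 10 tested members higher and none lower, Sav1 and Nf2 both at 1.5-fold.

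Pattern and scavenger receptors moved both ways. The C-type lectins of the Dectin-2 cluster, which bind fungal and mycobacterial sugars, were higher. Clec4n stood at 22.9, 29.5 and 17.2 FPKM in BMC+LIPUS and 2.66, 3.06 and 2.42 FPKM in control, 8.89-fold higher. Clec4e, at 134, 126 and 126 FPKM in BMC+LIPUS and 44.6, 41.7 and 45.3 FPKM in control, rose 3.07-fold, and its neighbour Clec4d and the more distant lectin Clec5a rose 1.88-fold and 1.74-fold. The groups overlapped for none of these lectins. Cd14, which hands lipopolysaccharide to its receptor, stood at 1065, 1108 and 1019.9 FPKM in BMC+LIPUS and 627, 572 and 669 FPKM in control and rose 1.79-fold. Cd33, which binds sialic acid, was 1.87-fold lower, at 19.5 ± 0.207 FPKM in BMC+LIPUS and 38.2 ± 3.50 FPKM in control (SD, n = 3 each), and the lipoprotein receptor Scarb1 1.42-fold lower (edgeR adjusted p = 2.48e-08 and 8.25e-06). Of 25 tested scavenger, phagocytic and Fc receptors 9 were called higher and 12 lower, with a median log2 change of -0.18.

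C5ar1, the receptor for the complement fragment C5a, stood at 49.8, 53.8 and 45.7 FPKM in BMC+LIPUS and 8.73, 9.22 and 12.8 FPKM in control, 5.11-fold higher. Of 12 tested complement genes 3 were called higher and 3 lower, near the shares over all genes tested, and 5 were lower without BMC+LIPUS library 2. In the Toll-like receptor and inflammasome list 11 of 28 tested members were called higher and 7 lower, with a median log2 change of -0.05 that was 0.01 without control library 1 and 0.07 among genes with at least 5 FPKM. The shares were 39.3% and 25%, the latter near the 21.9% over all genes tested. Nlrp3, the sensor of the inflammasome, stood at 47.7, 53.1 and 47.4 FPKM in BMC+LIPUS and 21.4, 23 and 21.5 FPKM in control and rose 2.36-fold. Irak2, a kinase below the Toll-like receptors, rose 2.58-fold and Tlr4, the receptor for lipopolysaccharide, 1.44-fold. Tlr9, which senses DNA, was 2.29-fold lower at 1.71, 2.58 and 1.72 FPKM in BMC+LIPUS and 3.92, 5.89 and 4.49 FPKM in control, and the adaptor Ticam2 1.73-fold lower (edgeR adjusted p = 1.17e-04 and 2.83e-06). Nlrp3 and Tlr9 thus moved in opposite directions with no overlap between the groups.

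Interferon-stimulated genes were lower where they were called, with 1 exception. Of 24 tested members 10 were called lower and 1 higher, with a median log2 change of -0.33, and without BMC+LIPUS library 1 the number lower was 6. Ifit2, an antiviral gene, was 3.79-fold lower, at 0.9, 0.44 and 0.52 FPKM in BMC+LIPUS and 2.55, 2.81 and 2.16 FPKM in control. Oas3, which makes an antiviral nucleotide signal, was 1.83-fold lower (edgeR adjusted p = 8.56e-05). The rise was Irf8, a factor of the macrophage lineage, 1.31-fold. Of 16 tested genes of antigen presentation by MHC class I and II, 7 were called lower and 1 higher, with a median of -0.26, and without BMC+LIPUS library 1 the number lower was 4. Tap1, which carries peptides into the ER, stood at 1.12, 1.31 and 0.98 FPKM in BMC+LIPUS and 2.87, 3.34 and 3.02 FPKM in control, 2.58-fold lower. The immunoproteasome subunits Psmb9 and Psmb8 were 2.57-fold and 1.55-fold lower.

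Macrophage identity genes moved in both directions, 8 of 24 tested higher and 6 lower, with a median log2 change of 0.06 that was -0.01 with library totals. These shares of 33.3% and 25% stood beside 21.1% and 21.9% over all genes tested. Spi1, which encodes the lineage factor PU.1, stood at 165, 169.8 and 166 FPKM in BMC+LIPUS and 131, 121 and 145 FPKM in control and rose 1.33-fold with the groups apart (edgeR adjusted p = 9.39e-05). Of 9 tested growth factors 4 were called higher and 3 lower, 44.4% and 33.3%. Pdgfb and Pdgfa, which act on fibroblasts and smooth muscle, rose 2.02-fold and 2.44-fold, while Igf1, a growth factor that macrophages release in repair, was 2.03-fold lower at 20.3 ± 3.43 FPKM in BMC+LIPUS and 43.1 ± 2.78 FPKM in control (SD, n = 3 each). Angptl4, an inhibitor of lipoprotein lipase, was 3.58-fold lower at low level.

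Survival genes of the BCL2 family and targets of p53 had 13 of 28 tested members called higher and 5 lower, with a median log2 change of 0.23, and without BMC+LIPUS library 1 the number lower was 3. Bcl2a1b, an NF-kB-driven survival gene with near-identical copies among which reads may be split, rose 2.08-fold, and Mcl1, another survival gene, 1.44-fold. Plk3, a stress kinase, stood at 10.5, 10.9 and 11.4 FPKM in BMC+LIPUS and 3.48, 3.52 and 3.32 FPKM in control, 3.33-fold higher with no overlap. Bid and Bmf, which promote death, were 1.56-fold and 1.59-fold lower (edgeR adjusted p = 3.26e-05 and 0.00162). Clock genes had 9 of 15 tested members higher and 4 lower. Nfil3, a repressor of the clock, stood at 18.9, 18.8 and 19.6 FPKM in BMC+LIPUS and 6.25, 6.69 and 7.42 FPKM in control and rose 2.96-fold, Per1 2.41-fold and Bhlhe40 2.44-fold, while Dbp, a clock output gene, was 1.97-fold lower.

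Of 35 ribosome biogenesis and MYC target genes, all tested, 17 were called higher and 3 lower, with a median log2 change of 0.17. Odc1, the polyamine enzyme and MYC target, stood at 164, 152 and 161 FPKM in BMC+LIPUS and 104, 104 and 107 FPKM in control and rose 1.59-fold, while Ubtf, a factor of ribosomal RNA transcription, was 1.27-fold lower (edgeR adjusted p = 1.79e-04). Ribosomal protein genes, which have many near-identical pseudogene copies and are uncertain for that reason, had 5 of 45 called higher and none lower. That count was 8 with DESeq2 and 10 with robust estimation, and 17 without control library 3 or without BMC+LIPUS library 2. In the iron and metallothionein list 5 of 18 tested members were higher and 3 lower, near the shares over all genes tested, and 3 were higher without control library 3 or BMC+LIPUS library 3. Cp, ceruloplasmin, rose 1.91-fold, and Steap3, a reductase for endosomal iron, was 2.29-fold lower.

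The remaining largest changes were of genes that are on none of the lists above. Whether they share the regulation of a listed pathway was not tested. Ranbp3l, a nuclear transport protein, stood at 15.7, 4.46 and 27.1 FPKM in BMC+LIPUS, 2.96, 10.0 and 25.8 FPKM in BMC and 2.32, 0.19 and 2.05 FPKM in control. All BMC+LIPUS libraries were above all controls, as the choice of the largest rises required, but both membrane groups spread widely. Its rise was 11.2-fold (log2 change 3.49 ± 0.75 SE, edgeR adjusted p = 0.00139), and the adjusted p was 0.0586 with robust estimation. Calhm6, an ion channel protein that interferon induces, stood at 0.36, 0.22 and 0.07 FPKM in BMC+LIPUS and 3.58, 4.24 and 3.07 FPKM in control, 15.4-fold lower. Odf3l1 stood at 2.00, 3.80 and 1.51 FPKM in BMC+LIPUS and 10.7, 12.2 and 11.4 FPKM in control and was 4.54-fold lower.

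Against the BMC membrane without ultrasound, 13 of the 12011 genes (0.108%) were called in the same fit, and 1383 had an unadjusted p under 0.05. This test shares the BMC+LIPUS libraries with the comparison against control, so the values are given side by side. Rcan1 was higher in BMC+LIPUS than in BMC by 0.51 on the log2 scale (edgeR adjusted p = 0.00395), beside 2.38 over control. For Cxcl2 the difference from BMC was 0.57 (edgeR adjusted p = 0.0345), beside 4.70 over control. Uvrag, Plk3 and Fyn differed from BMC by 0.64, 0.58 and 0.35, and S1pr2 by -0.55. Acod1, Ccl3, Tnf, Uhrf1 and Cdc6 were not called against BMC. The approximate 95% interval of that difference, with no adjustment for the number of genes, was -0.30 to 0.09 on the log2 scale for Acod1. For Ccl3 the interval was 0.03 to 0.40, for Tnf -0.03 to 0.32, for Uhrf1 -0.65 to -0.24 and for Cdc6 -0.77 to -0.28. The intervals of Acod1 and Tnf spanned 0 and those of Ccl3, Uhrf1 and Cdc6 did not.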

How the data were processed

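Polyadenylated RNA of RAW264.7 cells was extracted with Trizol and sequenced as stranded paired-end libraries, per the labels' protocols. The authors deposited 1 table with raw counts per gene and FPKM values for each library. The submitters' processing notes name cutadapt 1.9.1, HISAT2 2.0.1, HTSeq 0.6.1, DESeq2 and the build GRCm39. For the gene annotation, the strand option of HTSeq and the length behind FPKM, the value is not given in the sources used here, so overlapping and antisense genes were not separated further. From the values, each library's FPKM were scaled to its total over all lines. The 6 columns of 3 other libraries that no label describes were not used, and 2639 lines without a gene name, with 0.0889 to 0.0976% of the counts, were left out. For 77 names on more than 1 line the line with the highest mean count was kept.

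Counts were tested with edgeR 4.0.16 (R 4.3.3): TMM scaling, quasi-likelihood F-test, 3 group means over all 9 libraries so that they share an estimate of the spread, a minimum of 0.5 FPKM in the mean over those libraries, and Benjamini-Hochberg adjustment over the 12011 genes tested. The standard error was taken from the F statistic. Alternatives were library totals, DESeq2's size factors, DESeq2 1.42.0, limma 3.58.1 on log2(FPKM + 1) and log2(FPKM + 0.1), no filter, at least 5 FPKM, the 6 libraries alone, the replicate number as a block, robust estimation and leaving out each library. The median standard error over the genes tested, which includes the spread between libraries, was 0.0951 on the log2 scale.

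The genes named are 10 markers set by name, the 10 rises and 10 falls of greatest size in log2(FPKM + 1) that were called with no overlap between groups, up to 5 called members of a list in each direction by p, up to 6 genes with no count in a group, and members that moved against the rest, chosen after their values were seen. Pcna and Nfkbia were added after their values were seen. The genes, lists and tests were chosen with earlier results of these data known. Some genes that this rule names are not reported here. Of 1273 list symbols 1272 were found. Promoters are from RefSeq (GRCm38.p6), 1 start site per symbol.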

Additional observations from a re-analysis of the deposited data

How the results depend on the processing

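Of 327 single genes followed through 16 other settings, 5009 of 5166 values kept their direction and their side of the threshold, and 157 kept their direction but passed an adjusted p of 0.05. None turned round. Most of these genes were named because they were called in this fit, many of them for the smallest p in a list. Their stability is therefore partly built into the choice and does not describe all genes called. The number of genes called was 5160 as reported, 5136 with DESeq2's size factors, 4907 with DESeq2, 5073 with library totals, 4775 with limma on log2(FPKM + 1) and 5120 in the 6 libraries alone. Leaving out any 1 library gave 4304 to 5116 called genes, 2068 to 2520 of them higher and 2207 to 2596 lower. Genes called at least 2-fold numbered 661 as reported and 583 to 759 with 1 library left out. They numbered 313 with limma on log2(FPKM + 1), a scale that shrinks the change of low genes, and 258 with a filter of 5 FPKM, where fewer genes are tested. Of 1504 list counts 1401 stayed within 1.5 times the reported one. With limma on log2(FPKM + 1) the number called higher was 9 for autophagy, 11 for ribosome biogenesis, 3 for iron, and 1 each for the LXR and sphingosine lists. The median log2 change of 8 of the 47 lists turned sign under some setting. With 1 library left out, 16 of the 47 medians moved by over 1.5 times or turned sign, and under the other settings 32 did. The titles give the 3 groups the same replicate numbers, while the descriptions number the control libraries 1 to 3 and the others 2 to 4. Deviations of libraries with the same title number correlated at -0.0606 to 0.21 over genes, and those of libraries with the same description number at -0.0441 to 0.21. Libraries with different title numbers ran from -0.255 to 0.235, a range that holds the others. With 3 libraries in a group, these values cannot show whether a shared number marks libraries prepared together. With the title number as a replicate block, 5312 genes were called, and 16 ribosomal protein genes were higher. Low counts limit what can be said of Nos2, Il6, Il10, Arg1, Mrc1 and Cd163.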

Other observations

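Plat, which encodes tissue plasminogen activator, had 29, 15 and 35 counts in the BMC+LIPUS libraries and no count in any control library. The BMC libraries had 10, 8 and 30 counts. Against a floor of 3 counts over the control group Plat was at least 28.2-fold higher in BMC+LIPUS. Tnfrsf9, the receptor 4-1BB of the ligand Tnfsf9, had 9, 21 and 9 counts in BMC+LIPUS and none in control, at least 13.9-fold higher. In BMC it had 10, 6 and 4 counts. Both were below the filter and not tested. No gene with at least 5 counts in each control library was without a count in all BMC+LIPUS libraries.

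Outside the lists, the following genes were chosen after their values were seen, for a called change of at least 4-fold. Pla1a, a phospholipase that acts on phosphatidylserine, stood at 4.56, 5.34 and 4.06 FPKM in BMC+LIPUS and 0.52, 0.06 and 0.22 FPKM in control (18.6-fold higher, edgeR adjusted p = 7.27e-08). Rgs16, which ends G protein signals, stood at 3.19, 3.27 and 1.81 FPKM in BMC+LIPUS and 0.15, 0.13 and 0.31 FPKM in control, 14.7-fold higher. Gem, a small GTPase that restrains calcium channels, was 13.7-fold higher, at 2.69 ± 1.14 FPKM in BMC+LIPUS and 0.21 ± 0.182 FPKM in control (SD, n = 3 each). Rarb, the retinoic acid receptor beta, stood at 1.89, 0.67 and 2.88 FPKM in BMC+LIPUS and 0.15, 0.05 and 0.12 FPKM in control, with BMC+LIPUS libraries that spread widely but did not overlap control. Hcar2, the receptor for niacin and ketone bodies, rose 7.29-fold, and Gpr35, a G protein-coupled receptor of myeloid cells, 8.19-fold. Pdcd1, which encodes the checkpoint receptor PD-1, rose 8.24-fold at 2.30 ± 0.415 FPKM in BMC+LIPUS and 0.29 ± 0.0608 FPKM in control (SD, n = 3 each). Phlda1, an early response gene, rose 9.16-fold.

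Among the falls Gpr34, a lysophosphatidylserine receptor, stood at 0.09, 0 and 0 FPKM in BMC+LIPUS and 0.87, 2.42 and 1.08 FPKM in control. Its log2 change of -5.20 ± 0.74 (SE) rests on few BMC+LIPUS counts. Col15a1, a basement membrane collagen, was 5.74-fold lower, at 0.227 ± 0.0513 FPKM in BMC+LIPUS and 1.37 ± 0.222 FPKM in control (SD, n = 3 each). Gask1b and Cped1 were 5.53-fold and 4.91-fold lower.

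Genes with some of the largest called differences in absolute level were also chosen after their values were seen. Ifitm3, which blocks virus entry and which interferon can raise, stood at 1258, 1111 and 1203 FPKM in BMC+LIPUS and 739, 723 and 835 FPKM in control, 1.63-fold higher, against the direction of the called members of the interferon list other than Irf8. Atp1b3, a subunit of the sodium pump, rose 1.80-fold, at 470.5 ± 51.4 FPKM in BMC+LIPUS and 275 ± 24.5 FPKM in control (SD, n = 3 each). Srgn, the proteoglycan of secretory granules, stood at 249, 188 and 246 FPKM in BMC+LIPUS and 74.7, 71.3 and 78.5 FPKM in control, 3.20-fold higher (edgeR adjusted p = 7.83e-09). Ifi30, a lysosomal thiol reductase that helps load MHC class II, was 1.73-fold lower, with 135, 166 and 113 FPKM in BMC+LIPUS and 232, 264 and 253 FPKM in control.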
